A study of Oryza sativa with 15 samples.

Results

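SDWT is a rice line without a transgene that came out of a transgenic one, and its differentially methylated regions (DMRs) against the wild type WYJ7 are described here. All regions of the authors' list for this pair were taken, 2731 of the 11392 regions in 3 lists that share the WYJ7 libraries. WYJ7 is a cultivar of *Oryza sativa* ssp. *japonica* that went through no culture. SDWT plants were T4 descendants of a T0 plant heterozygous for *pOsNAR2.1-OsNAR2.1*, a construct with the *OsNAR2.1* coding sequence under its own promoter. That T0 plant had passed through callus induction, hygromycin selection and transformation, and the construct was then lost by segregation. OsNAR2.1 is needed for the uptake of nitrate by roots when nitrate is scarce. The other lists set CK (T0 plants regenerated from callus without a construct) and the T4 line *pOsNAR2.1-OsNAR2.1*, a sister of SDWT that kept the insertion, against the same WYJ7 libraries. Shoots of 10-day-old seedlings grown in water were used, with CK plants moved to water from root medium. Whole-genome bisulfite sequencing (WGBS) gave 3 libraries for each group. SDWT is 1 line from 1 transformed plant, so effects of culture, selection, transformation and descent cannot be told apart. A supplement of the study gives methylation and traits of WYJ7 line by line, but whether the 3 SDWT replicates were separate plants is not stated in the sources used here, so the spread in SDWT may be technical.

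Plants can methylate a cytosine whatever base follows it, and sites are classed as CG, CHG or CHH, with H for any base but G. CG methylation is copied to the new strand by the maintenance enzyme MET1 at each division and can pass through many generations, whereas CHH methylation has to be set again, in part by small RNAs. Methylation near the start of a gene often goes with low transcription, and CG methylation inside the gene body is common in expressed genes. Changes of DNA methylation after tissue culture are well known in rice, and some are inherited by seed.

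A methylation level is the percentage of reads that kept a cytosine after bisulfite treatment, averaged over the cytosines of a region. A region with a higher mean of the 3 SDWT levels than of the 3 WYJ7 levels is called a hyper-DMR, and one with a lower mean a hypo-DMR. All regions had been called by the authors on this contrast with these 6 libraries, so the levels below describe the list and were not tested again. With 3 libraries against 3, an exact two-sided permutation test of a region could not have gone below p = 0.1. The read depth behind each level was not in the values used, and no counting error could be given.

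Both directions were almost equally frequent in SDWT. There were 1409 hyper-DMRs and 1312 hypo-DMRs, so that 51.8% of the 2721 regions with a direction were hyper-DMRs. The other 10 regions, with 3 cytosines each, were listed at 0 in all 6 libraries. The absolute difference had a median of 27.7 percentage points, with quartiles of 20.3 and 36.5, and the largest was 89.2 points. At 30 points or more there were 600 hyper-DMRs and 554 hypo-DMRs, at 40 points or more 247 and 253, and at 50 points or more 96 and 98. The balance of directions was thus close at each of these sizes. Of all regions, 667 (24.4%) had a difference of the mean levels under 20 points, and 144 (5.27%) one under 10 points. These small differences had nearly the same split, with 340 hyper-DMRs and 317 hypo-DMRs under 20 points.

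**Figure D1:**
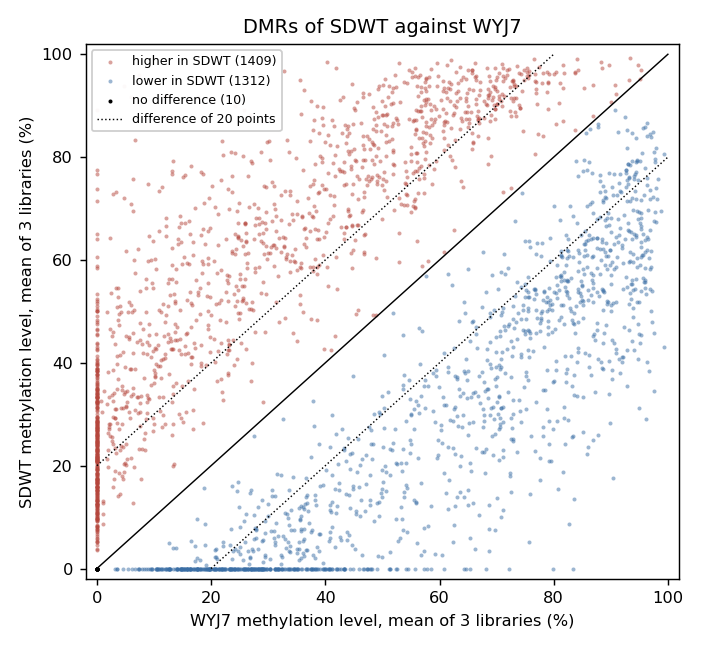
Methylation level of each of the 2731 DMRs in SDWT (y axis, mean of 3 libraries, %) and in WYJ7 (x axis, mean of 3 libraries, %). Red points are the 1409 hyper-DMRs, blue points the 1312 hypo-DMRs and black points the 10 regions at 0 in all libraries. The solid line marks equal levels and the dotted lines a difference of 20 points. Points line up along both axes at 0, where a group was listed at 0 in all its libraries.

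The direction went with the level in the wild type. Of the 806 regions with a WYJ7 mean under 20%, 666 were hyper-DMRs and 130 were hypo-DMRs. Of the 429 regions above 80%, 27 were hyper-DMRs and 402 were hypo-DMRs. A region near 0 or 100% can hardly move further in that direction, so these counts are set in part by the scale. The middle class, from 20% to 80%, had room both ways and held 1496 regions, of which 716 (47.9%) were hyper-DMRs and 780 were hypo-DMRs. Inside it the split varied with the level. At a WYJ7 mean of 20% to 40% there were 249 hyper-DMRs and 296 hypo-DMRs (45.7% hyper), at 40% to 60% there were 281 and 199 (58.5%), and at 60% to 80% there were 186 and 285 (39.5%). Level and direction both use the WYJ7 mean, so these splits are not independent of the bins, and they were not tested.

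**Figure D2:**
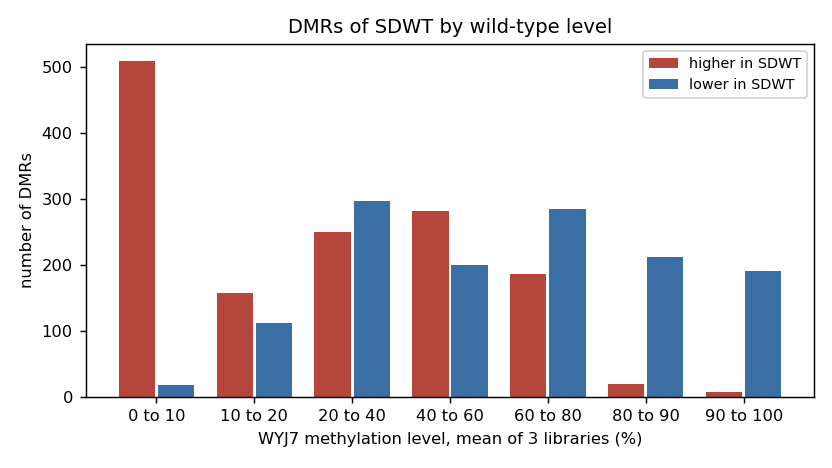
Number of hyper-DMRs (red) and hypo-DMRs (blue) of SDWT in bins of the WYJ7 mean level (x axis, %). The lowest bin held 509 hyper-DMRs and 18 hypo-DMRs, and the highest held 7 and 190. Hyper-DMRs were more numerous from 40% to 60%, and hypo-DMRs in both adjoining bins.

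The class reached in SDWT was most often the middle one. Of the 806 regions low in WYJ7, 513 (63.6%) had an SDWT mean between 20% and 80%, 285 stayed under 20% and 8 were above 80%. Of the 429 regions high in WYJ7, 374 (87.2%) lay in the middle class in SDWT, 49 stayed above 80% and 6 fell under 20%. Whole switches between low and high were therefore rare in both directions. From the middle class, 359 regions were above 80% in SDWT, 453 were under 20%, and 684 stayed in it. Summed over the list, SDWT had 744 low, 1571 middle and 416 high regions, against 806, 1496 and 429 in WYJ7.

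Many regions were listed at 0 in every library of one line. SDWT was at 0 in all 3 libraries in 343 regions and WYJ7 in 349, including the 10 regions that were at 0 in both. The 333 hypo-DMRs at 0 throughout SDWT had WYJ7 means with a median of 25.1%, and the 339 hyper-DMRs at 0 throughout WYJ7 had SDWT means with a median of 23.3%. In 203 regions at 0 in SDWT all 3 WYJ7 libraries were above 0, and in 202 regions at 0 in WYJ7 all 3 SDWT libraries were above 0. Listed gains from 0 and losses to 0 were thus of like number and size. Without depth, a listed 0 cannot be told apart from a low level with few reads or from a missing value. The 10 regions at 0 in both lines were listed as DMRs although these levels hold no difference.

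In the hyper-DMRs the mean level per library was 57.0%, 57.4% and 57.6% in SDWT (57.3% ± 0.290, SD, n = 3) and 28.6%, 28.1% and 28.2% in WYJ7 (28.3% ± 0.276, SD, n = 3), a difference of 29.0 points. In the hypo-DMRs it was 29.1%, 28.9% and 29.3% in SDWT (29.1% ± 0.200, SD, n = 3) and 55.4%, 60.6% and 59.3% in WYJ7 (58.4% ± 2.70, SD, n = 3), a difference of -29.3 points. The 2 sets were close to mirror images in size, but both had passed the same call and were split by the sign of the difference. The libraries of each line lay close together except in the WYJ7 levels of the hypo-DMRs. There replicate 1 was below the other two. In the hypo-DMRs of the middle class it had 45.5%, against 53.1% and 50.8% in WYJ7 replicates 2 and 3, while the SDWT libraries had 18.7%, 18.7% and 19.0%. Averaged over all 2731 regions the level was 43.6% ± 0.193 in SDWT and 42.7% ± 1.16 in WYJ7 (SD, n = 3 each), a difference within the spread of the WYJ7 libraries.

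**Figure D3:**
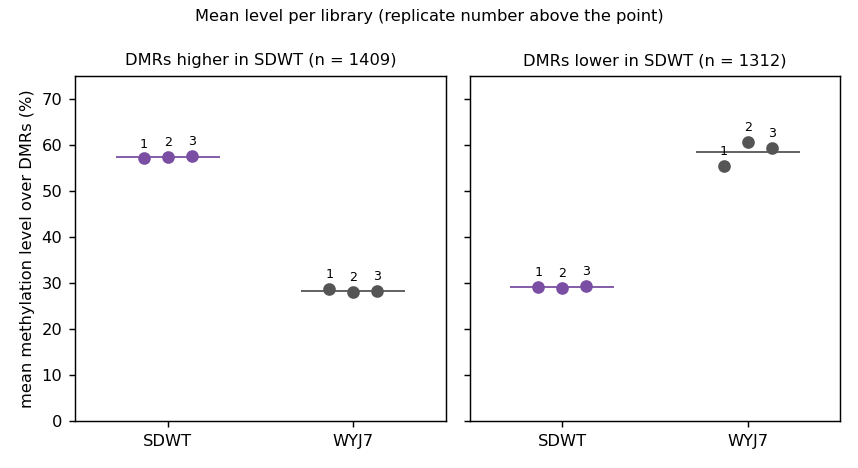
Mean methylation level (y axis, %) over the 1409 hyper-DMRs (left) and the 1312 hypo-DMRs (right) in each SDWT and WYJ7 library. Points are libraries with their replicate number, and lines are means of 3 libraries. WYJ7 replicate 1 lies at 55.4% in the hypo-DMRs, below replicates 2 and 3 at 60.6% and 59.3%.

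The libraries of the 2 lines did not overlap in 1888 regions (69.1% of the list). In 969 (35.5%) all 3 SDWT levels were above all 3 WYJ7 levels, and in 919 (33.7%) all were below. As the list holds only regions already called on these libraries, nothing is read from these shares beyond the count. Where the lines were separate, the gap between the nearest libraries had a median of 13.7 points, and it was 20 points or more in 573 regions. The other 843 regions (30.9%) overlapped. Separation went with the number of cytosines, since 60.1% of the 1028 regions with 3 cytosines were separate, 71.8% of the 1140 with 4, 78.9% of the 516 with 5 to 9 and 93.6% of the 47 with 10 or more. The hyper share did not follow this order, with 51.8%, 51.7%, 51.7% and 55.3% in the same sets.

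WYJ7 replicate 1 decided more overlaps than any other library. Without it 264 of the 843 overlapping regions became separate, and without each other library 114 to 170 did. It was 40 points or more below the other 2 WYJ7 libraries, themselves within 20 points of each other, in 48 regions, whereas any other library stood alone this low in 15 to 26. With this replicate left out, 78.8% of the regions were separate. The mean of this library was also the lowest of WYJ7 in the hypo-DMRs of the other 2 lists, with 72.4% against 73.0% and 73.0% for CK and 55.0% against 58.5% and 57.8% for *pOsNAR2.1-OsNAR2.1*. These lists use the same WYJ7 libraries, so this is not a separate observation. In the hyper-DMRs this library was not the lowest in any list. There it had 28.6% against 28.1% and 28.2% for SDWT, and 27.9% against 27.5% and 28.2% for CK. For *pOsNAR2.1-OsNAR2.1* it had 31.5% against 31.3% and 32.1%. This library was listed at 0 in 577 regions, against 516 and 527 in the other 2 WYJ7 libraries and 507 to 537 in those of SDWT. What sets it apart was not tested.

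The spread among the 3 libraries was of like size in both lines over the whole list, with a median range of 15.3 points in SDWT and 16.3 points in WYJ7. It was 40 points or more in 348 regions in SDWT and 375 in WYJ7. It differed between the level classes of WYJ7. The median range was 19.4 points in SDWT and 6.62 points in WYJ7 in the low class, 11.2 and 25.6 points in the middle class, and 22.0 and 8.37 points in the high class. In each class the line whose levels lay nearer the middle of the scale had the wider range. The classes were cut on the mean of these same WYJ7 libraries, which limits the WYJ7 range in the low and high classes. This order is therefore not read as a difference between the lines.

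By position in genes, 1238 regions were in the upstream window of a gene (a median of 2000 bp), 180 in introns, 135 in exons, and 1178 had no gene annotation. Hyper-DMRs numbered 653 against 582 hypo-DMRs in upstream windows (52.9% hyper), 95 against 85 in introns (52.8%), 75 against 60 in exons (55.6%) and 586 against 585 in unannotated regions (50.04%). The shares differed by only a few points between features, and no feature was mainly of one direction. In the middle class they were 48.3% upstream, 53.8% in introns, 52.1% in exons and 46.0% in unannotated regions. Non-overlapping libraries were found in 71.3% of upstream, 71.1% of intron, 65.9% of exon and 66.9% of unannotated regions. All lay near the 69.1% of the whole list. Mean differences of the hyper-DMRs were 28.8 points upstream, 27.3 in introns, 28.5 in exons and 29.6 in unannotated regions. For the hypo-DMRs they were -29.6, -27.5, -31.6 and -29.1 points in the same order. All regions had passed the authors' call and were split by sign, so these like sizes are not read as a result about position.

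Upstream regions differed by the kind of gene identifier, a comparison chosen after the values were seen. Upstream of genes with identifiers beginning OS there were 375 hyper-DMRs and 291 hypo-DMRs (56.3% hyper), and upstream of those beginning EPlOSAG 278 and 291 (48.9%). In the middle class the shares were 51.6% and 44.2%. Among regions with at least 5 cytosines they were 52.5% and 53.7%, so the order turned. The difference was not tested, and no result rests on it.

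**Figure D4:**
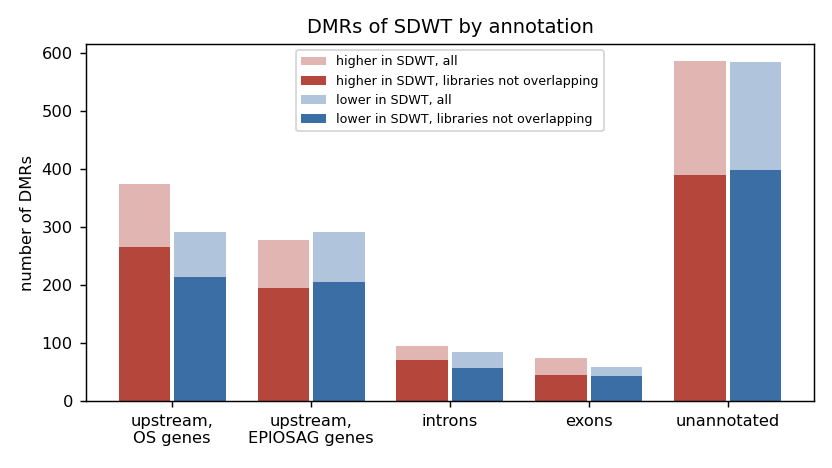
Number of DMRs of SDWT (y axis) by annotated feature and, for upstream windows, by the beginning of the gene identifier. Pale bars are all hyper-DMRs (red) and hypo-DMRs (blue), and the dark part of each bar is the number whose SDWT and WYJ7 libraries did not overlap. Bars for both directions are of similar height, with 375 and 291 upstream of OS genes as the widest gap.

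The list named 1499 genes in 1553 regions, 923 with OS and 576 with EPlOSAG identifiers. Their functions are not given, since the list holds no description for any of these genes and none of the identifiers was found in the reference table used. Hyper-DMRs alone were found at 780 genes and hypo-DMRs alone at 696. Most genes had 1 region (1447), 50 had 2 and 2 had 3. Of the 52 genes with more than 1 region, 21 had hyper-DMRs only, 11 had hypo-DMRs only and 20 had both.

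Nearly all regions were in the CpG context, with 2715 CpG regions and 16 CpH regions (CHG and CHH together). The methods describe a DMR caller that works on distances between CpGs. How many regions of each context were examined is not known here, so the small number of CpH regions does not show that CHG and CHH methylation changed little. Of the CpH regions 11 were hyper-DMRs, 4 were hypo-DMRs and 1 was at 0 throughout. The libraries did not overlap in 10 (62.5%, against 69.1% of the whole list). These were 6 of the 11 hyper-DMRs and all 4 hypo-DMRs, so the excess of hyper-DMRs rests largely on regions with overlapping libraries. Their hyper-DMRs had mean levels of 34.2%, 25.8% and 32.8% in the SDWT libraries, against 7.18%, 9.49% and 14.8% in those of WYJ7. The CpH hyper-DMR with the largest difference lay in an exon of OS03G0608700 (chromosome 3, 22914071 to 22914085, IRGSP-1.0), with 58.6%, 65.7% and 74.3% in SDWT and 0%, 14.3% and 45.0% in WYJ7. The next was upstream of EPlOSAG00000011847 on the same chromosome (30018520 to 30018537), with 44.5%, 36.7% and 61.3% in SDWT against 0%, 3.65% and 23.9% in WYJ7. In both regions the WYJ7 libraries spread widely but stayed below SDWT. The hypo-DMRs with the largest differences were unannotated, one at chromosome 1, 20170916 to 20170920, with 0% in all SDWT libraries and 40.0%, 42.0% and 33.3% in WYJ7. The other, at chromosome 6, 4521250 to 4521283, had 43.0%, 51.7% and 51.3% in SDWT and 82.7%, 76.0% and 74.7% in WYJ7.

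The regions were short, with a median width of 20 bp and a range of 4 to 139 bp, and covered 62.97 kb in all. They lay on all 12 chromosomes, from 151 on chromosome 9 to 331 on chromosome 1. The hyper share ran between 44.9% on chromosome 12 and 57.3% on chromosome 5. Of the 1 Mb blocks with any region, 370 in number, the median held 7 regions. The densest lay on chromosome 2 between 18054382 and 18948441, with 22 regions, of which 7 were hyper-DMRs and 15 were hypo-DMRs. Of these 22 regions 14 were separate, beside 69.1% of all regions in the list. Neighbouring regions within 100 bp shared their direction in 31 of 35 pairs. Farther apart the split was near even, with 27 of 52 pairs (51.9%) over 100 and up to 1000 bp apart, 111 of 227 (48.9%) up to 10000 bp, and 1178 of 2405 (49.0%) beyond that. Neighbours within 100 bp were kept as separate regions, as the list gives them.

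Single regions show how wide these differences were. Among regions with at least 5 cytosines and no overlap, the largest hyper-DMR upstream of a gene was that of OS11G0579000 (chromosome 11, 21858543 to 21858561, 6 cytosines), with 74.4%, 79.3% and 87.3% in SDWT and 28.9%, 25.7% and 11.8% in WYJ7, a difference of 58.2 points. The largest in an intron was in OS11G0274166 on the same chromosome (9695795 to 9695837), with 90.5%, 91.3% and 92.4% in SDWT and 8.57%, 45.5% and 18.9% in WYJ7 (67.1 points). SDWT was almost uniform in this intron, whereas WYJ7 replicate 2 stood well above the other WYJ7 libraries. The largest in an exon was in EPlOSAG00000041469 (chromosome 3, 30393479 to 30393506), with 69.9%, 70.4% and 69.7% in SDWT and 13.1%, 35.6% and 20.6% in WYJ7 (46.9 points). The largest in unannotated sequence lay at chromosome 6, 4773779 to 4773822, with 73.6%, 84.3% and 69.2% in SDWT and 19.1%, 0% and 0% in WYJ7 (69.4 points). The same coordinates are listed for CK, with 0% in all 3 of its libraries against the same WYJ7 levels.

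The largest hypo-DMR of this kind upstream of a gene was that of EPlOSAG00000029791 (chromosome 10, 20860689 to 20860710), with 9.33%, 37.2% and 31.4% in SDWT and 84.8%, 81.8% and 96.7% in WYJ7, a difference of -61.8 points. In an intron it was in OS04G0596500 (chromosome 4, 30090228 to 30090268), with 44.4%, 28.4% and 55.2% in SDWT and 86.9%, 98.5% and 87.5% in WYJ7 (-48.3 points). In both genes WYJ7 was almost fully methylated and the SDWT libraries spread over more than 20 points. In an exon it was in OS05G0203912 (chromosome 5, 6471045 to 6471073), with 0%, 10.0% and 0% in SDWT and 63.7%, 69.8% and 72.6% in WYJ7 (-65.3 points). In unannotated sequence it lay at chromosome 9, 8734454 to 8734486, with 5.97%, 13.8% and 2.56% in SDWT and 70.8%, 78.5% and 59.8% in WYJ7 (-62.3 points). Here SDWT was near 0 in every library.

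Regions with fewer cytosines had larger differences still, and these were picked after their values were seen. An unannotated region of 3 cytosines on chromosome 6 (30710414 to 30710440) had 86.6%, 92.4% and 88.5% in SDWT and 0% in all WYJ7 libraries, which was the largest difference of the list (89.2 points). An unannotated one on chromosome 5 (1483403 to 1483426) had 0% in all SDWT libraries and 83.0%, 86.9% and 80.5% in WYJ7, the largest in the other direction (-83.5 points). Both had 3 closely matching libraries in the methylated line, and the other line was at a listed 0 of unknown depth.

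The 2 genes with 3 regions each had hyper-DMRs only. Upstream of OS03G0854500 on chromosome 3, the region from 35988486 to 35988493 had 92.9%, 92.1% and 87.8% in SDWT and 82.4%, 65.4% and 70.8% in WYJ7. The next, from 35988532 to 35988545, had 49.9%, 54.0% and 31.0% in SDWT and 16.7%, 0% and 0% in WYJ7. The last, from 35988577 to 35988635, had 29.6%, 41.8% and 12.1% in SDWT and 0% in all WYJ7 libraries. Along this short stretch the level declined in both lines and SDWT stayed above WYJ7 throughout. The list of *pOsNAR2.1-OsNAR2.1* has a region from 35988486 to 35988544 at 74.6%, 68.4% and 74.3% in that line, against 59.6%, 42.4% and 45.3% in WYJ7. In OS05G0545900 on chromosome 5, an exon held regions from 27104138 to 27104159 and from 27104189 to 27104249. The first had 97.2%, 97.0% and 92.8% in SDWT and 63.5%, 60.0% and 68.7% in WYJ7. The second had 95.4%, 92.3% and 90.8% in SDWT and 46.9%, 62.3% and 80.3% in WYJ7. SDWT was thus near full methylation in this exon. The region in an intron of the gene (27104377 to 27104404) overlapped between the lines, with 59.1%, 20% and 48.9% in SDWT and 0%, 22.7% and 16.0% in WYJ7.

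Of the 20 genes with regions in both directions, 6 were taken by the size of the smaller of their 2 differences. Upstream of OS08G0344300 (chromosome 8), a region from 15569679 to 15569691 had 35.6%, 57.1% and 27.7% in SDWT and 100%, 91.8% and 97.5% in WYJ7. Another from 15571068 to 15571097 had 69.7%, 56.3% and 67.8% in SDWT and 0%, 0% and 27.2% in WYJ7. The order of the lines was thus reversed between regions upstream of 1 gene. In introns of OS11G0543300 (chromosome 11), the region from 19951002 to 19951047 had 9.24%, 0% and 15.0% in SDWT and 25.3%, 46.6% and 51.5% in WYJ7, and that from 19952139 to 19952180 had 73.2%, 89.3% and 73.8% in SDWT and 15.7%, 27.6% and 38.2% in WYJ7. Upstream of OS07G0144500 (chromosome 7), the region from 2255972 to 2255981 had 92.4%, 91.6% and 91.0% in SDWT and 0%, 6.67% and 11.4% in WYJ7, and in CK, at the same coordinates, 61.5%, 72.3% and 72.8%. Its hypo-DMR from 2256705 to 2256718 had 0% in all SDWT libraries but also 0% in WYJ7 replicate 1, against 42.5% and 44.0% in WYJ7 replicates 2 and 3. This was the only one of the 12 regions in these 6 genes whose libraries overlapped. The genes were chosen by the size of their differences, so this count is not read as a trait of them. In the whole list 69.1% of regions did not overlap, and 88.0% of those with a difference of 30 points or more.

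The other 3 genes also had a hyper-DMR and a hypo-DMR each, all with libraries that did not overlap. OS11G0562100 (chromosome 11) had an upstream region from 20941401 to 20941424 with 65.8%, 46.3% and 38.0% in SDWT and 0% in all WYJ7 libraries, and an intron region from 20955472 to 20955491 with 61.1%, 0% and 40.8% in SDWT and 90.5%, 94.5% and 83.9% in WYJ7. EPlOSAG00000031293 (chromosome 1) had upstream regions from 14191295 to 14191326, with 85.5%, 87.3% and 74.9% in SDWT and 51.7%, 48.6% and 44.8% in WYJ7, and from 14192704 to 14192713, with 0%, 16.7% and 0% in SDWT and 38.6%, 65.9% and 23.8% in WYJ7. Upstream of EPlOSAG00000049031 (chromosome 9) opposite changes were very close. The region from 504876 to 504888 had 0% in all SDWT libraries and 30.1%, 30.3% and 44.6% in WYJ7, while that from 504911 to 504918 had 23.7%, 33.6% and 25.8% in SDWT and 0% in all WYJ7 libraries. For CK 1 region from 504876 to 504941 spans both, with 49.6%, 39.0% and 59.8% in CK against 17.0%, 13.5% and 18.6% in WYJ7.

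Regions with many cytosines rest on more sites. In the low class, among regions with no overlap, the 3 with the most cytosines, 12 each, were hyper-DMRs upstream of genes. EPlOSAG00000033841 (chromosome 8, 724813 to 724836) had 57.3%, 9.07% and 39.1% in SDWT and 0% in all WYJ7 libraries. OS11G0444700 (chromosome 11, 14703912 to 14703951) had 12.4%, 29.0% and 50.3% in SDWT and 0%, 0% and 2.52% in WYJ7, and OS11G0591300 on the same chromosome (22467328 to 22467364) had 24.1%, 26.2% and 1.65% in SDWT and 0% in all WYJ7 libraries. In these the SDWT libraries differed widely among themselves, and in OS11G0591300 replicate 3 was close to WYJ7. In the high class the 3 chosen in the same way were hypo-DMRs with closer libraries. OS05G0500300 (upstream, chromosome 5, 24622951 to 24623045, 13 cytosines) had 45.8%, 59.3% and 51.4% in SDWT and 85.7%, 87.1% and 85.3% in WYJ7. EPlOSAG00000005642 (upstream, chromosome 7, 13242197 to 13242248, 11 cytosines) had 50.2%, 61.1% and 60.9% in SDWT and 84.9%, 84.8% and 90.1% in WYJ7. In an intron of OS06G0364500 (chromosome 6, 15192415 to 15192498, 12 cytosines) there were 50.6%, 56.9% and 58.1% in SDWT and 81.7%, 85.2% and 87.8% in WYJ7. For *pOsNAR2.1-OsNAR2.1* a CpG window from 15192403 to 15192438 with 5 cytosines overlaps it, with 46.0%, 57.1% and 45.5% in that line against 14.1%, 17.6% and 22.1% in WYJ7. The same WYJ7 libraries thus had high and low levels in overlapping CpG windows with different numbers of cytosines, and what sets these levels apart was not tested.

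**Figure D5:**
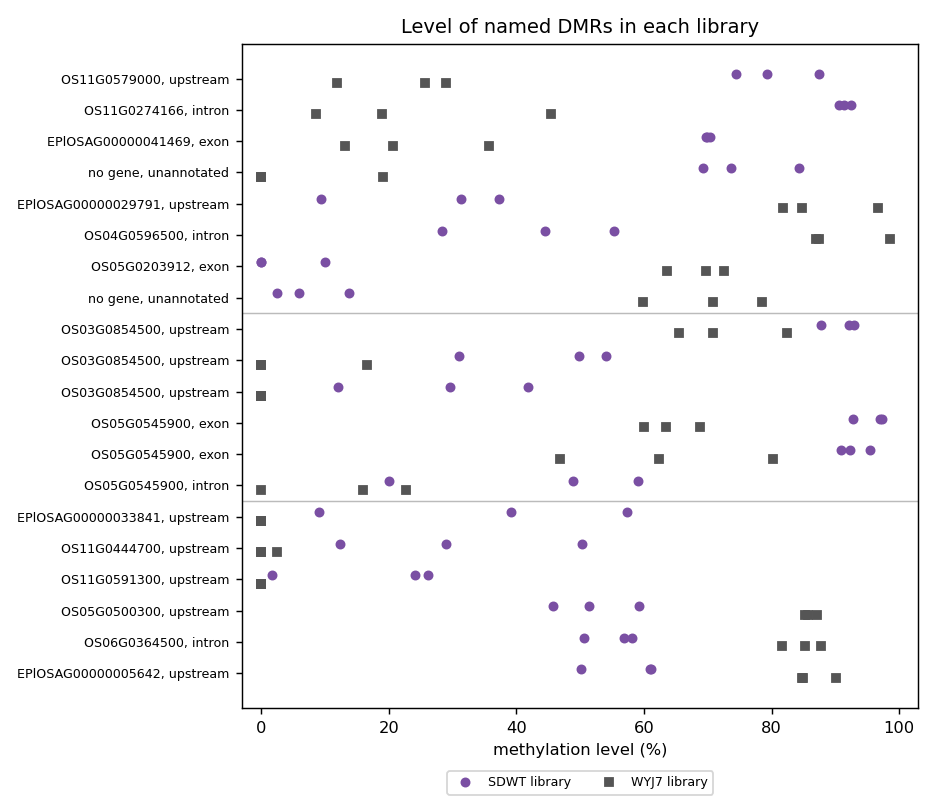
Methylation level (x axis, %) of 20 named DMRs in each SDWT library (purple circles) and WYJ7 library (grey squares), 1 line per region. From the top, the groups are the largest differences by feature, the 2 genes with 3 regions, and the regions with the most cytosines in the low and high classes. The libraries overlap only in the intron of OS05G0545900.

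The other lines gave lists of other size and balance from the same WYJ7 libraries. CK had 5122 regions, 1466 hyper-DMRs and 3645 hypo-DMRs, and *pOsNAR2.1-OsNAR2.1* had 3539, with 2721 and 788. Among regions with a middle WYJ7 level, the hyper share was 47.9% in SDWT, 77.3% in *pOsNAR2.1-OsNAR2.1* and 32.6% in CK. The libraries did not overlap in 69.1% of regions for SDWT, 61.4% for CK (15.0% higher and 46.4% lower in CK) and 74.7% for *pOsNAR2.1-OsNAR2.1* (57.8% higher and 16.9% lower in that line). The median range among the 3 libraries of the line was 15.3 points in SDWT, 13.5 in *pOsNAR2.1-OsNAR2.1* and 27.6 in CK. Per the study, the CK lines came from 3 independent calli, whereas SDWT and its sister line descend from the same transformed plant. These ranges may therefore not measure the same kind of spread. The even split in SDWT lies between the opposite splits of CK and its sister line, but the lists share their control libraries and the differences between them were not tested.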

How the data were processed

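Genomic DNA of SDWT (labelled FP) and WYJ7 shoots was analysed by WGBS, with 3 libraries each. Per the methods, the authors mapped reads to IRGSP-1.0 with Bismark 0.9.0 and kept uniquely mapped reads. DMRs were called with methylKit and eDMR (versions not given in the sources used here). Removal of cytosines of low depth is described for the calculation of coverage. Whether it was also applied before the DMRs were called is not stated. The deposited levels are percent methylation per region and library, by the methods the mean over its cytosines. Whether libraries were normalized to each other is not stated, and no normalization was added here. The deposited width and number of CpGs are other values of the authors. In 112 of 2715 CpG regions that number was higher than 1 strand can hold, so it counts cytosines of both strands. The columns with the authors' difference, p-value, q-value, number of differential cytosines and direction were not used. Levels without read counts allow no count model, and regions not called and depths were not analysed here, so no error rate is given.

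Means, differences, ranges and non-overlap were calculated with Python 3.11.15, numpy 2.4.6 and pandas 2.3.3, and functions were tested on simulated data. Figures were drawn with matplotlib 3.10.9. Coordinates are those of the list (IRGSP-1.0). Named regions were, by rule, the largest difference for each direction and feature (at least 5 cytosines, no overlap), genes with 3 or more regions, the 6 genes with the largest changes in both directions, the 2 largest CpH regions in each direction, and the 3 regions with the most cytosines in the low and high classes. Members and rules were chosen with earlier results of these data known. Lists of gene functions had been planned but could not be applied, as none of the 1499 identifiers matched the reference table. Alternatives were differences of at least 30 points, at least 5 cytosines, medians, merging within 100 bp, weighting by width, other classes, each gene once, a gap of 5 points and each library left out. The split by gene identifier and the most extreme regions were added after the data were seen. The 3 samples of another assay were not analysed here.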

Additional observations from a re-analysis of the deposited data

How the results depend on the processing

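Of 97 alternatives of 12 results, 81 stayed within a band around the value reported. For shares the band was a binomial interval over regions, which counts each region as independent. For mean differences and replicate spread it was an SD between libraries or pairs of libraries. Regions are not independent replicates, so the tally does not measure agreement between plants. Mean differences were taken after a split by their own sign, so that sign could not change. The overall hyper share of 51.8% was 51.1% to 52.0% with each library left out. With the middle class set at 10% to 90% in place of 20% to 80%, its hyper share was 44.7%. Among regions with at least 5 cytosines, the hyper share was 65.8% in introns (of 38 regions) and 53.7% upstream of EPlOSAG genes, against 48.9% in all regions there, which crosses an even split. The share in unannotated regions, 50.04%, also crossed it, with 47.3% at 5 or more cytosines and 49.3% without SDWT replicate 3. At 5 or more cytosines non-overlap was found in 80.1%, and the mean difference of the hyper-DMRs was 28.5 points. Among regions with a difference of at least 30 points, 88.0% did not overlap, and the mean difference was 41.0 points in hyper-DMRs and -41.3 points in hypo-DMRs, as that minimum itself removes small differences. With a gap of at least 5 points required, 58.3% were separate. With each library left out, non-overlap ran between 73.3% and 78.8%, above the 69.1% of all 6 libraries because fewer levels have to be separate, and the mean difference was 29.0 to 29.5 points in hyper-DMRs and -31.0 to -28.3 points in hypo-DMRs. No fit with pairs was made, as no test was run, and deviations of same-numbered libraries were nearly uncorrelated (r of -0.0149, 0.0199 and 0.0099 across regions). Depth was unknown, and a level over 3 cytosines may be coarse. Regions are not replicate plants.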
